A study of Mus musculus with 4 samples.

Results

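Cell cycle and replication genes were followed through 4 cultures that the labels call hepatocyte-like cells. The 42 genes are a set of named genes taken by symbol, with no threshold on measured values, and all 42 were found among the 78028 gene entries of the count data. They comprise 7 G1 and S cyclins, 2 mitotic cyclins, 4 cyclin-dependent kinases (CDKs), 3 CDK inhibitors, 3 pocket proteins, 4 E2F factors, 6 subunits of the MCM helicase, 4 licensing and clamp genes, 7 mitotic genes, and the kinase and phosphatase that act on the tyrosine switch of the CDKs. Each culture was grown on its own from mouse embryonic stem cells of the E14TG2a line, an established line that lacks a working Hprt gene, and was driven toward the liver lineage with A-HIC, an advanced hepatic-inducing cocktail. The sources used here give neither the day of collection nor the agents in the cocktail. Poly(A) RNA of each culture gave 1 library without strand information, so that the 4 libraries form 1 group without an undifferentiated or hepatocyte control. Replicate numbers 1 to 4 of the labels serve as the library names.

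The label was checked against markers of the hepatocyte. Of the 11 hepatocyte markers with a gene length, only Ttr, a thyroid hormone carrier, reached a level of 1 TPM (the transcript level scaled for gene length and library size) in every library. Alb, the gene of serum albumin, had 11, 171, 0 and 12 counts in libraries 1 to 4, and Cyp7a1 and Cyp2e1 had none. Markers of pluripotent cells stood at 1 TPM or more in all libraries for 8 of the 8 genes with a length, as did 9 of 9 markers of parietal endoderm and 7 of 7 fibroblast markers. The cells are therefore called cultures here, not hepatocytes. In bulk RNA, fewer cells of a type and less RNA per cell cannot be told apart.

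Cyclins are short-lived proteins that switch on the CDKs in a fixed order. D-type cyclins with Cdk4 and Cdk6 start the phosphorylation of the pocket proteins (Rb1, Rbl1 and Rbl2), which frees E2F factors to turn on genes of the G1/S transition. Cyclin E and cyclin A with Cdk2 carry cells through S phase, where the loaded MCM helicase opens the DNA, and cyclin B with Cdk1 drives mitosis. Embryonic stem cells pass through a short G1 phase, while adult hepatocytes mostly rest outside the cycle.

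Libraries 1 to 4 held 37797816, 40154964, 29518642 and 40124479 counts, so that 3 counts corresponded to between 0.0747 and 0.102 CPM, the count scaled to library size alone. The 42 genes took 0.689%, 0.629%, 0.691% and 0.645% of the counts of libraries 1 to 4. They are 0.211% of the protein-coding genes and made up 0.637% ± 0.0220 (SD, n = 4) of all TPM. In all 4 libraries 41 of the 42 genes reached 1 TPM, beside 63.3% of the 19945 protein-coding genes. At 10 TPM in every library stood 39 of the 42, beside 44.0% of protein-coding genes, and at 100 TPM 23 of the 42, beside 8.88%. Their median level was 139 TPM, against 18.4 TPM over all genes tested that have a length, and 38 of the 42 lay above that median. The median of log2(TPM + 0.1) was 7.11 for these genes, 2.90 for protein-coding genes and 4.19 for all genes tested.

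**Figure D1:**
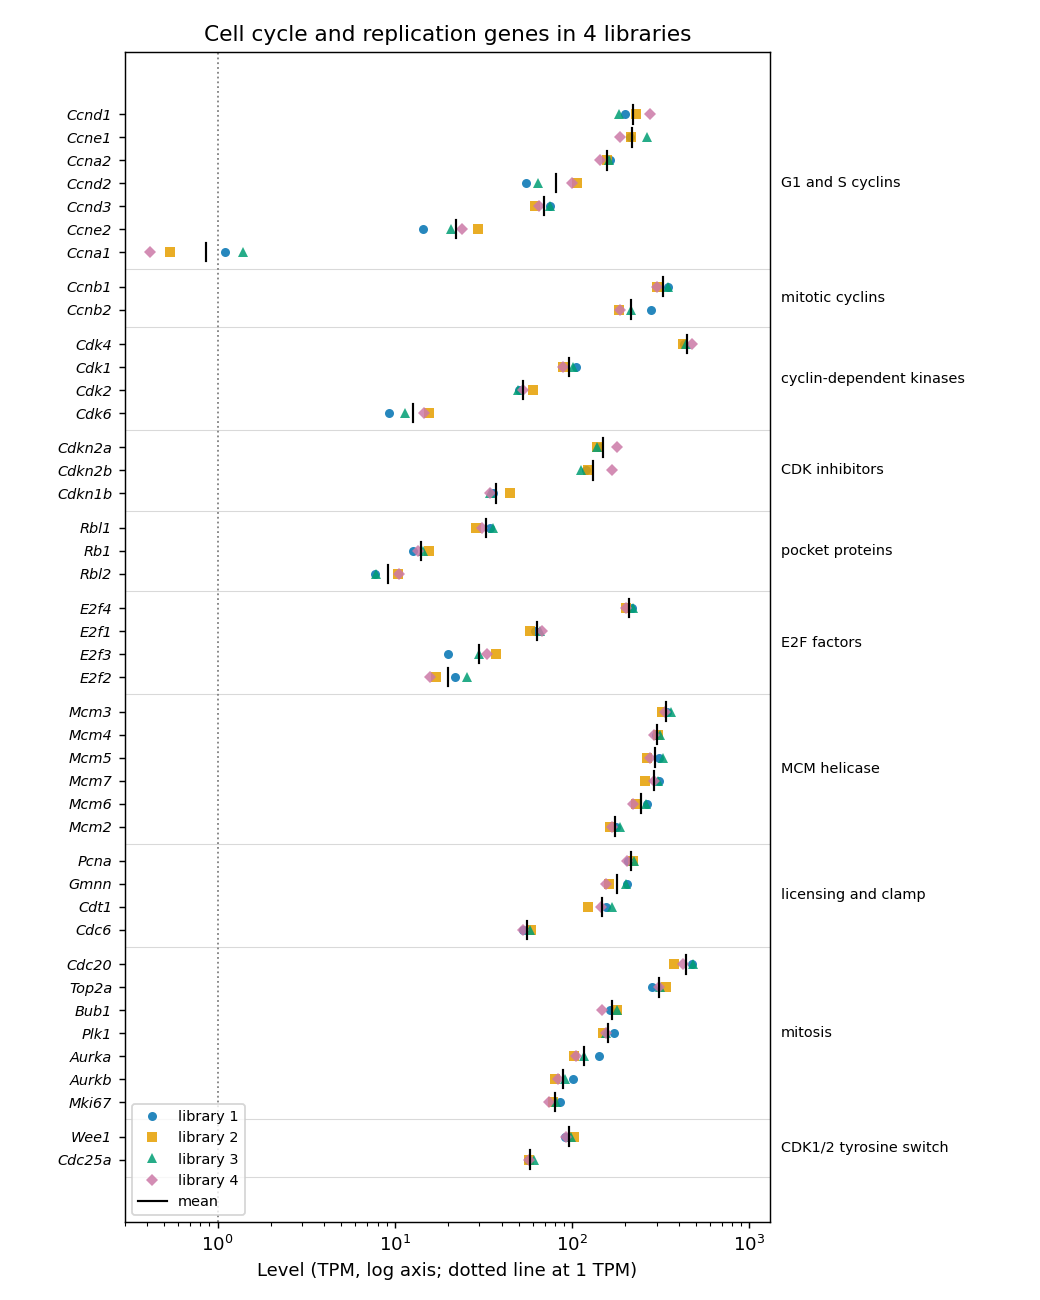
Level of each of the 42 genes in TPM on a log axis, grouped by role, with 1 symbol for each of the 4 libraries and a bar at their mean. The levels run from Ccna1 at 0.863 TPM to Cdk4 at 442 TPM, and the symbols of Ccnd2, Ccne2, E2f3 and Cdk6 lie further apart than those of most other genes.

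Among the D-type cyclins, which couple growth signals to the cycle, Ccnd1 stood at 198, 229.7, 184 and 275 TPM in libraries 1 to 4, with a mean of 222 ± 40.4 (SD, n = 4). Ccnd2 stood at 55.2, 106, 64.0 and 100.3 TPM (mean 81.4 ± 25.6). Both cyclins were lower in libraries 1 and 3 than in libraries 2 and 4, and for each the 2 pairs of libraries did not overlap. Such an order was common, since libraries 2 and 4 held the 2 highest values in 30.0% of the 16061 genes tested that have a length. Ccnd3 stood at 75.5, 61.9, 74.9 and 64.8 TPM (mean 69.3 ± 6.95) with the opposite order, higher in libraries 1 and 3. Ccnd1 exceeded Ccnd2 in 4 of 4 libraries, by 1.48 ± 0.30 on the log2(TPM + 0.1) scale, a 2.80-fold ratio. The place of Ccnd3 in this order depended on the gene length used. Its annotated exons add up to 8775 bases, against 2113 bases in its principal transcript. With the second length its level was 191 TPM, and Ccnd1 exceeded it in only 2 of 4 libraries (mean log2 ratio -0.055).

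The E-type cyclins start S phase together with Cdk2. Ccne1 stood at 212, 214, 263 and 186 TPM, with a mean of 219 ± 32.1 (SD, n = 4). Its paralog Ccne2 stood at 14.4, 29.4, 20.9 and 24.0 TPM (mean 22.2 ± 6.25). Library 3 was highest for Ccne1 and library 1 lowest for Ccne2. The log2 ratio of Ccne1 over Ccne2 was 3.33 ± 0.50, a 10.1-fold ratio, and at least 2.86 in each library. Ccna2, the cyclin A of dividing somatic cells, stood at 163, 156, 161 and 144 TPM (mean 156 ± 8.41). Ccna1, the cyclin A of the male germ line, was the only gene of the 42 below 1 TPM on average, with 21, 10, 20 and 8 counts, or 1.11, 0.537, 1.39 and 0.419 TPM. Its higher values lay in libraries 1 and 3, at counts too low to be tested across libraries. The mitotic cyclin Ccnb1 stood at 348, 302, 349 and 300.3 TPM (mean 325 ± 27.1). Its paralog Ccnb2, which associates with the Golgi, stood at 279.6, 183, 214 and 186 TPM (mean 216 ± 44.8), with library 1 above the others.

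Of the kinases, Cdk4, the partner of the D cyclins, had the highest mean of all 42 genes. It stood at 428, 424, 441 and 475 TPM (mean 442 ± 23.1, SD, n = 4), which ranked it 272nd of 19945 protein-coding genes. Cdk6, the other partner of the D cyclins, stood at 9.25, 15.6, 11.4 and 14.6 TPM (mean 12.7 ± 2.91), lower in libraries 1 and 3 than in libraries 2 and 4. Cdk4 exceeded Cdk6 by 5.14 ± 0.32 on the log2 scale, a 35.2-fold ratio, and the ratio was larger still with the principal transcript lengths (log2 ratio 5.52). Cdk1, the mitotic kinase, stood at 105, 88.7, 101 and 88.6 TPM (mean 95.8 ± 8.44). Cdk2, the S phase kinase, stood at 50.4, 59.9, 49.3 and 53.1 TPM (mean 53.2 ± 4.75). The order of these 2 kinases was not settled, since Cdk1 was above Cdk2 in 4 of 4 libraries with the exon union (log2 ratio 0.85 ± 0.24) and in 0 of 4 with the principal transcripts (log2 ratio -0.45). About 19.7% of the exon bases of Cdk4 are shared with exons of Tspan31 on the opposite strand, and reads from the 2 genes cannot be told apart there.

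The CDK inhibitors act against these kinases. Cdkn1b, which encodes p27 and binds cyclin E and cyclin A complexes, stood at 35.7, 44.5, 34.5 and 34.6 TPM (mean 37.3 ± 4.79, SD, n = 4), with library 2 apart from the other 3. Cdkn2a stood at 142, 139, 139 and 179 TPM (mean 149.8 ± 19.7), with library 4 apart. Cdkn2b, which encodes an inhibitor of Cdk4 and Cdk6, stood at 120.5, 124, 113 and 168 TPM (mean 131 ± 24.8), again highest in library 4. Cdkn2a and Cdkn2b are neighbours on chromosome 4 and had a log2 ratio of 0.20 ± 0.09, which was 0.59 with principal lengths and -0.044 with CPM, so that their order depended on the scale. Cdkn2a has a pair of promoters: the upstream one opens the transcript of Arf, an inhibitor of Mdm2, and the downstream one that of Ink4a, an inhibitor of Cdk4 and Cdk6. Counts per gene do not separate these transcripts, so the level of Cdkn2a is a sum of both.

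Pocket proteins were the role with the lowest summed level, at 54.9, 54.9, 57.9 and 55.2 TPM in libraries 1 to 4. Rb1, the retinoblastoma protein, stood at 12.6, 15.7, 14.4 and 13.5 TPM (mean 14.04 ± 1.29, SD, n = 4). Rbl1, which encodes p107 and is itself an E2F target, stood at 34.6, 28.9, 35.7 and 31.2 TPM (mean 32.6 ± 3.14). Rbl2, which encodes p130, the pocket protein of resting cells, stood at 7.73, 10.4, 7.80 and 10.5 TPM (mean 9.11 ± 1.56). Rbl1 was higher and Rbl2 lower in libraries 1 and 3 than in libraries 2 and 4. Rbl1 exceeded Rbl2 by 1.84 ± 0.38 and Rb1 by 1.21 ± 0.24 on the log2 scale, each in 4 of 4 libraries and with both kinds of gene length.

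Of the E2F factors, E2f4, which represses with the pocket proteins, was the highest at 217, 201, 222 and 200.2 TPM (mean 210.1 ± 11.0, SD, n = 4). The activator E2f1 stood at 61.8, 57.6, 66.1 and 67.6 TPM (mean 63.3 ± 4.50). E2f4 exceeded E2f1 in 4 of 4 libraries, by 1.73 ± 0.11 on the log2 scale. The other two activators were lower, with wider spreads relative to their means. E2f3 stood at 20.0, 37.1, 29.9 and 33.0 TPM (mean 30.0 ± 7.30), with library 1 lowest. E2f2 stood at 21.8, 17.0, 25.6 and 15.9 TPM (mean 20.1 ± 4.49), higher in libraries 1 and 3.

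The 6 subunits of the MCM helicase, which unwinds DNA at origins as a ring with 1 copy of each, lay within a 1.97-fold range in each library. Mcm3 stood at 345, 323, 360.3 and 333 TPM (mean 340.2 ± 16.1, SD, n = 4). Mcm2 stood at 177, 164, 186 and 169 TPM (mean 174 ± 9.42). The means of Mcm4, Mcm5, Mcm7 and Mcm6 lay between them, at 301 ± 10.8, 294 ± 27.6, 291 ± 22.6 and 243 ± 22.5 TPM. The highest subunit was 1.94 to 1.97 times the lowest within a library, Mcm3 over Mcm2 each time. That order was not kept with principal transcript lengths, where Mcm4 was lowest in every library and the ratio was 1.31 to 1.56. In 5 of the 6 subunits libraries 1 and 3 had the 2 highest values, and in Mcm4 libraries 2 and 3 had them.

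Licensing genes decide when the helicase is loaded, and the clamp holds polymerases on DNA. Cdt1, which loads the helicase, stood at 156, 123, 167 and 146 TPM (mean 148 ± 18.9, SD, n = 4). Gmnn, its inhibitor geminin, stood at 203, 161, 202 and 156 TPM (mean 180.3 ± 25.8). Gmnn was higher in libraries 1 and 3, and Cdt1 was lowest in library 2. Cdt1 lay below Gmnn by -0.28 ± 0.14 on the log2 scale in 4 of 4 libraries, but with principal lengths the log2 ratio was -0.14 and Cdt1 was the higher in 1 of 4. Cdc6, the loading ATPase, stood at 53.0, 58.7, 57.7 and 53.2 TPM (mean 55.6 ± 2.96). Pcna, the clamp, stood at 206, 221, 224 and 205 TPM (mean 214 ± 9.92). The level of Pcna is uncertain, because a separate pseudogene entry, Pcna-ps2, held 2364, 2198, 1746 and 2120 counts, 42.5% of the counts of Pcna itself.

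Mitotic genes were led by Cdc20, the activator of the anaphase-promoting complex, at 476, 376, 478 and 423 TPM (mean 438 ± 48.7, SD, n = 4). Top2a, which untangles sister DNA, stood at 283, 338, 312 and 308 TPM (mean 310.3 ± 22.3). Their order depended on the gene length used, since with principal transcript lengths Top2a led at 356 TPM, above Cdc20 at 304 TPM. Cdc20 was higher in libraries 1 and 3, whereas Top2a was highest in library 2 and lowest in library 1. Bub1, a kinase of the spindle checkpoint, stood at 164, 179, 178 and 148 TPM (mean 167 ± 14.9). Plk1, polo-like kinase, stood at 172, 149.6, 156 and 156 TPM (mean 158 ± 9.64). Aurka, the kinase of the spindle poles, stood at 141, 103, 116 and 106 TPM (mean 116 ± 17.3), with library 1 highest. Aurkb, the kinase of the chromosomal passenger complex, stood at 101, 80.0, 90.7 and 83.6 TPM (mean 88.9 ± 9.43), also highest in library 1. Aurka exceeded Aurkb by 0.38 ± 0.06 on the log2 scale in 4 of 4 libraries. Mki67, the proliferation antigen that coats mitotic chromosomes, stood at 85.7, 78.3, 80.7 and 73.7 TPM (mean 79.6 ± 5.01). Libraries 1 and 3 were highest for it, within a narrow range.

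The tyrosine switch that holds the CDKs off is set by Wee1, a kinase, and released by Cdc25 phosphatases. Wee1 stood at 90.8, 102, 98.4 and 92.98 TPM (mean 96.1 ± 5.20, SD, n = 4). Cdc25a stood at 56.3, 57.2, 60.6 and 57.5 TPM (mean 57.9 ± 1.91) with the smallest relative spread of the 42 genes. The log2 ratio of Cdc25a over Wee1 was -0.73 ± 0.07, yet it became 0.41 with principal transcript lengths, with Cdc25a the higher in 4 of 4 libraries. Which of the 2 is more abundant was therefore not settled by these data.

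**Figure D2:**
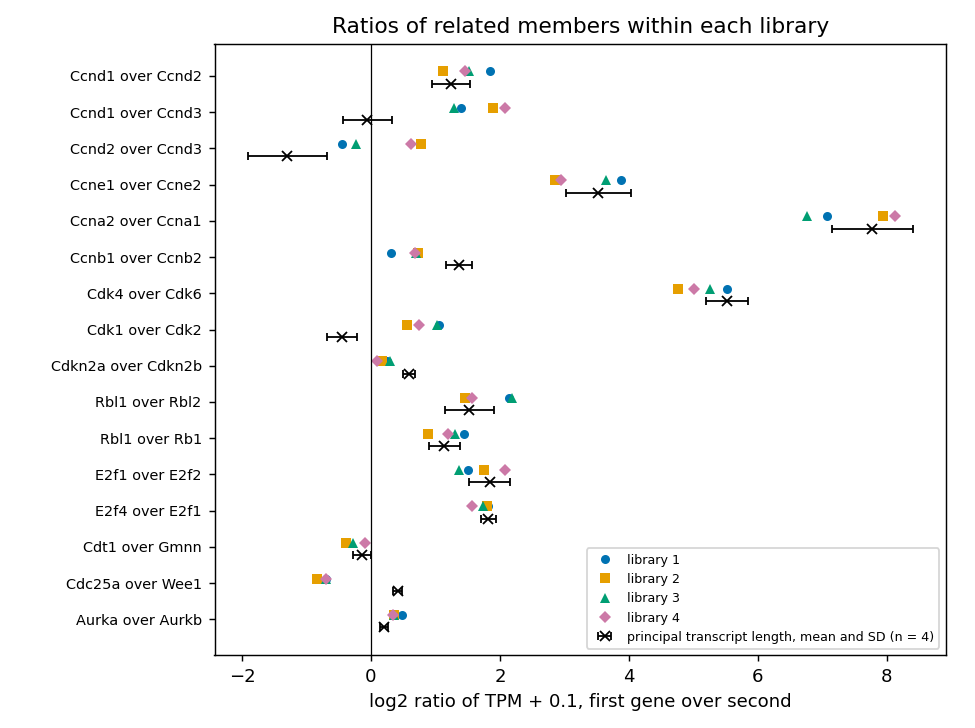
The log2 ratio of TPM + 0.1 for 16 pairs of related genes, with 1 symbol per library and a cross with bars for the mean and SD (n = 4) with principal transcript lengths. The 4 symbols lie on 1 side of 0 in 15 of the 16 pairs, and the cross lies on the other side from them for Ccnd1 over Ccnd3, Cdk1 over Cdk2 and Cdc25a over Wee1.

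Over the 16 pairs, 15 kept 1 sign in all 4 libraries, the exception being Ccnd2 over Ccnd3 (log2 ratio 0.18 ± 0.61, Ccnd2 the higher in 2 of 4). With principal lengths that ratio was -1.30 and Ccnd2 was the higher in 0 of 4. With both kinds of gene length 11 pairs kept the same sign in all 4 libraries. No test was made of these ratios, because a two-sided exact sign-flip test over 4 libraries has 2 of 16 sign patterns as extreme as full accord and so cannot reach a p of 0.05.

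The genes were next set by the phase in which their transcripts peak in cycling cells. The 13 G1/S genes (Ccne1, Ccne2, E2f1, the 6 MCM subunits, Pcna, Cdc6, Cdt1 and Cdc25a) are turned on by E2F factors. The 11 G2/M genes (Ccna2, Ccnb1, Ccnb2, Cdk1, Mki67, Top2a, Cdc20, Plk1, Aurka, Aurkb and Bub1) are known as targets of the DREAM and MuvB complexes, which bind the cell cycle genes homology region (CHR), and of NF-Y, which binds CCAAT boxes. The RefSeq promoters of GRCm38.p6, from 250 bases before to 50 bases after the start, were searched on both strands for the CHR (TTTGAA or TTCGAA), for the box CCAAT and for an E2F motif (TTTGGCGC or TTTCGCGC or TTTCCCGC or TTTGCCGC). In the promoters of the 42 genes, CCAAT and E2F matches overlapped 1 time and E2F matches overlapped each other 2 times. A promoter was found for 32 of the 42 genes (37 promoters), and Ccna2, Ccnd1, Ccnd2, Ccne2, Gmnn, Mcm4, E2f4, Rb1, Aurkb and Wee1 had none in the table. A match is a description of the letters and not a bound site or a cause.

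Promoters of 3 genes of each phase are shown 5′ to 3′, those of genes named above with several matches, with all matches in capitals. The G2/M promoters lie at chr9:70421505-70421804, minus strand (Ccnb2), chr4:118437294-118437593, minus strand (Cdc20) and chr11:99024140-99024439, minus strand (Top2a).
Ccnb2: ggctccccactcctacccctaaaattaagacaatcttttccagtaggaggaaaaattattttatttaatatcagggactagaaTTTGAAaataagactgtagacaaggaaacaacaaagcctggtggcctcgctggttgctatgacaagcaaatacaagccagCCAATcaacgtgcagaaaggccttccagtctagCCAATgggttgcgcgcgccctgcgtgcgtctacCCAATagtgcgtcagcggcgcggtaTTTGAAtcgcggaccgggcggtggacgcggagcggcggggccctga
Cdc20: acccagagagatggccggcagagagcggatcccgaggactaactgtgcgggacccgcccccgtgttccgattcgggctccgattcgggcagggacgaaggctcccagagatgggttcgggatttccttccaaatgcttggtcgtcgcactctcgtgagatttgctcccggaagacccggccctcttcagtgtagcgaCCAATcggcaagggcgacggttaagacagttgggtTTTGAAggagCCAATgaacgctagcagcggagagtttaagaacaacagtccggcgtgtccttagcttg
Top2a: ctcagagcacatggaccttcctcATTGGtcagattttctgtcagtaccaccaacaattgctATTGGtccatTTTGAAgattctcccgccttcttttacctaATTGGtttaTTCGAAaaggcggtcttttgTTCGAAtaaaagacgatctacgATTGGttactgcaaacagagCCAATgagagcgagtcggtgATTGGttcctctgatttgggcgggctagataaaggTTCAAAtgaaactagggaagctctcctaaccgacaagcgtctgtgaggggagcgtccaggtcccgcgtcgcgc
The G1/S promoters lie at chr1:20820263-20820562, minus strand (Mcm3), chr8:75109259-75109558, plus strand (Mcm5) and chr1:128359656-128359955, minus strand (Mcm6).
Mcm3: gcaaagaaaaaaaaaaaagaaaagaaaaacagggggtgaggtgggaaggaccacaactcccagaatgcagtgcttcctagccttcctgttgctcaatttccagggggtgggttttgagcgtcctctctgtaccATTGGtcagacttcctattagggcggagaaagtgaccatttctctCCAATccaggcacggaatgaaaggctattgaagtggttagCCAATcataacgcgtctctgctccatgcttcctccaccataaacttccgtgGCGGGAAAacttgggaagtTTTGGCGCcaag
Mcm5: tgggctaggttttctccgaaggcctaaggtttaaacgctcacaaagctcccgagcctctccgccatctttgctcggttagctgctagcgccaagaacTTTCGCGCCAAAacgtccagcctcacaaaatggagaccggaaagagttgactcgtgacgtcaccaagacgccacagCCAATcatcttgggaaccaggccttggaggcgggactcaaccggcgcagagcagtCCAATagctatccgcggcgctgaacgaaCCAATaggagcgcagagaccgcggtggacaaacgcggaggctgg
Mcm6: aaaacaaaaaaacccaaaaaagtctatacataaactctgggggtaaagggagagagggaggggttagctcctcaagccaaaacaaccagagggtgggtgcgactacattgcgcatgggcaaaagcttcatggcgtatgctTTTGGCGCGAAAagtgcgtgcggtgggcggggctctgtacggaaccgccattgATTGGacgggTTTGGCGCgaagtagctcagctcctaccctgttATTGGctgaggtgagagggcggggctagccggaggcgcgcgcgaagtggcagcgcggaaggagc
Ccnb2 has CCAAT boxes with their first bases at -87, -54 and -21 and CHR matches at -167 and 5 from the start, Cdc20 has CCAAT boxes at -53 and -8 and a CHR at -18, and Top2a has 6 CCAAT boxes and 4 CHR matches. Mcm6 has E2F matches at -110, -106 and -47, the first 2 of which overlap, and CCAAT boxes at -57 and -14, but no CHR.

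The pair of Cdkn2a promoters lies at chr4:89294570-89294869 for Arf and chr4:89282143-89282442 for Ink4a, both on the minus strand, and is shown because the counts of this gene could arise at either.
Cdkn2a upstream promoter: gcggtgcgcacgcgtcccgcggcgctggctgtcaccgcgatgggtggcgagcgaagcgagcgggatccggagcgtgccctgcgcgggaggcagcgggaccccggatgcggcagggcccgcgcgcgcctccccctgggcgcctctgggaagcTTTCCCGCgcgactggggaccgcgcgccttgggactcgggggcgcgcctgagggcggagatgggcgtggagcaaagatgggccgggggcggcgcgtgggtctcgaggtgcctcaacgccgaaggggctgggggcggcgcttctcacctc
Cdkn2a downstream promoter: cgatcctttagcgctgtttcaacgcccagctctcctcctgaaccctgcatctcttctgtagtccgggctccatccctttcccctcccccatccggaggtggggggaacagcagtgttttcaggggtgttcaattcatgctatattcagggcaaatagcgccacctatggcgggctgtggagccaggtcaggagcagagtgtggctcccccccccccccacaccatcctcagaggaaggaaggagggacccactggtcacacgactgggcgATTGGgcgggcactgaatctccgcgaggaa
The upstream promoter holds 1 E2F match, with its first base at -99, and the downstream one holds 1 CCAAT box at 21.

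Of the 9 G2/M promoters, 8 held a CHR (88.9%), against 2 of the 12 G1/S promoters (16.7%) and 19.2% of all 32851 promoters. A CCAAT box was in 9 of the 9 G2/M promoters, in 8 of the 12 G1/S promoters and in 37.4% of all promoters, and 2 or more boxes were in 8 G2/M promoters, against 11.7% of all. The E2F motif was in 7 of the 12 G1/S promoters (58.3%), in 1 G2/M promoter (that of Cdk1) and in 2.26% of all. The remaining 16 promoters of the 42 genes held a CHR in 4, a CCAAT box in 8 and an E2F motif in 5. These shares describe the sequences and use no RNA level. The G1/S and G2/M genes are known targets of factors that bind these motifs, so high shares were foreseeable and are no test of the lists.

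**Figure D3:**
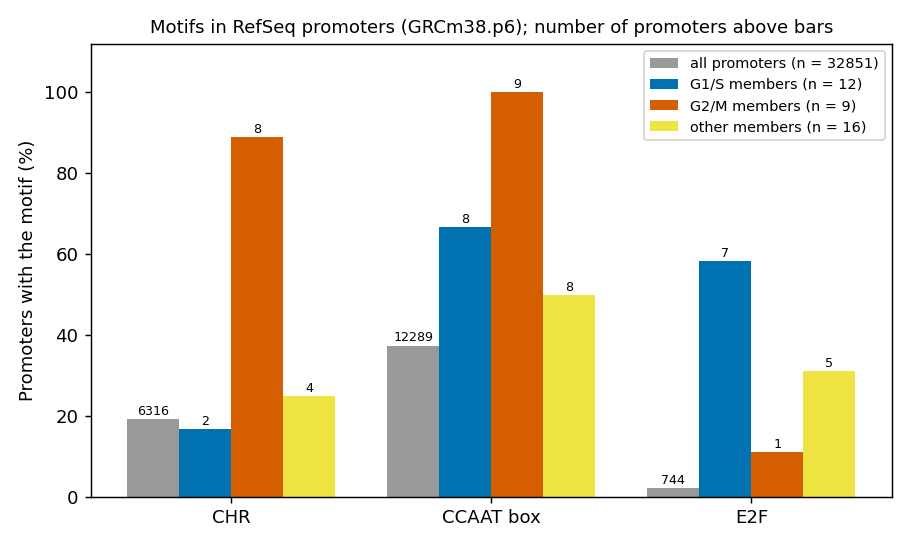
Share of promoters (in %, 300 bases each) that hold a CHR, a CCAAT box or an E2F motif, for all promoters (n = 32851) and for those of the G1/S (n = 12), G2/M (n = 9) and other genes (n = 16) of the 42, with the number of promoters above each bar. The G2/M bars are the tallest for the CHR (8 of 9) and the CCAAT box (9 of 9), and the G1/S bar for E2F (7 of 12).

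On the RNA level, the 13 G1/S genes summed to 2459, 2307, 2608 and 2315 TPM in libraries 1 to 4. The 11 G2/M genes summed to 2319, 2034, 2237 and 2017 TPM. Both sums were higher in libraries 1 and 3 than in libraries 2 and 4, without overlap. Single genes had this order in 29.0% of the 16061 genes tested that have a length. The log2 ratio of the G2/M over the G1/S sum was -0.0845, -0.18, -0.22 and -0.20, with a mean of -0.17 ± 0.06 (SD, n = 4) and below 0 in 4 of 4 libraries. The sums hold 13 G1/S genes but 11 G2/M genes, so a ratio below 0 does not mean a lower level per G2/M gene. The sign also depended on the summary. The difference of the mean log2 levels, which is not shifted by the number of genes in a list, was 0.23. On that scale low G1/S genes such as Ccne2 count as much as high ones.

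The wider pathway was read from 106 further cell cycle genes, of which 105 reached 1 TPM in all 4 libraries, with a median of 62.6 TPM. All 35 genes of origin firing and the replisome reached 1 TPM, from Rrm2, a subunit of ribonucleotide reductase, at 274 TPM and Gins4 at 222 TPM to Gins3 at 27.7 TPM and the flap nuclease Fen1 at 9.52 TPM. All 28 genes of the spindle, its checkpoint and the anaphase-promoting complex did so too, from the checkpoint kinase Bub1b at 236 TPM and the spindle factor Tpx2 at 193 TPM to Ndc80 at 35.0 TPM and Anapc10 at 24.7 TPM. Among 13 further E2F and DREAM genes, all at 1 TPM or more, Mybl2, which joins MuvB at G2/M promoters, stood at 517 TPM and Tfdp1, the E2F dimer partner, at 233 TPM, with Lin9 at 13.9 TPM and the repressor E2f7 at 12.4 TPM at the low end. Of 13 further cyclins, CDKs and their partners 12 reached 1 TPM, led by Ccng1, a p53 target, at 935 TPM and Cks1b at 365 TPM, with Cks2 at 10.2 TPM and the germ line cyclin Ccnb3 at 0.105 TPM lowest. The 11 genes of the other CDK inhibitors and the Skp2 arm all reached 1 TPM. Cdkn1a, which encodes p21, stood at 156, 231, 159 and 240.5 TPM (mean 197 ± 45.4, SD, n = 4), and Cdkn1c, which encodes p57, at 82.2, 214, 105 and 137 TPM (mean 134 ± 57.5). Both were lower in libraries 1 and 3 than in libraries 2 and 4. Cdkn3 at 10.2 TPM and Cdkn2c at 4.77 TPM were the lowest of that list. Of 6 checkpoint genes Mdm2, the ligase of p53, stood at 272 TPM and Trp53 at 174 TPM, with the kinases Atm at 25.7 TPM and Atr at 11.7 TPM lowest. The ranks within these lists used the exon union and partly changed with principal transcript lengths. With those lengths Ube2s, at 264 TPM, stood above Bub1b, at 183 TPM. Likewise Dbf4, at 210 TPM, stood above Gins4, at 147.5 TPM.

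**Figure D4:**
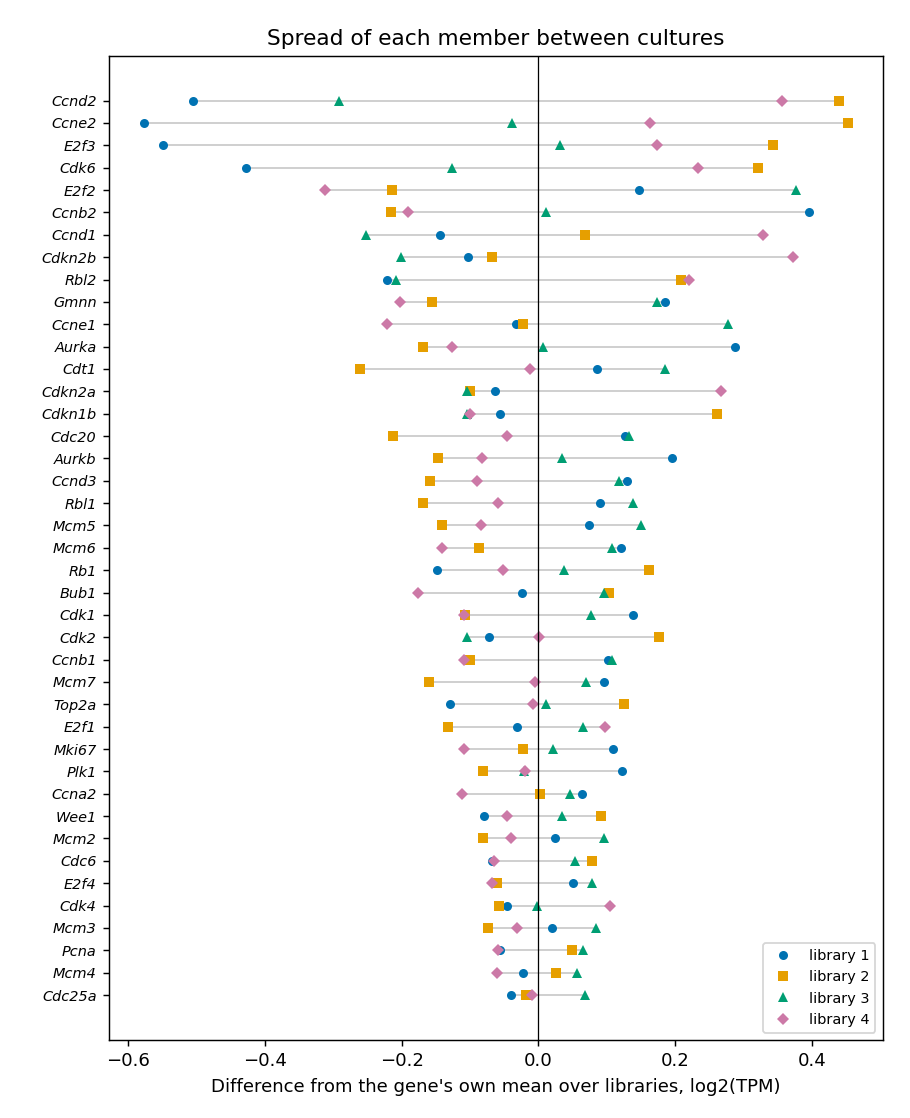
Difference of each library from the mean of its gene on the log2(TPM) scale, for the 41 genes tested, ordered by the SD of log2(TPM) over the libraries. Ccnd2, Ccne2, E2f3 and Cdk6 spread widest, with libraries 1 and 3 to the left, except library 3 of E2f3, and Pcna, Mcm4 and Cdc25a spread least.

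Most of these genes differed little between the cultures. The highest library was at least 1.5 times the lowest in 6 of the 41 genes tested (Ccnd2, Ccne2, E2f3, Cdk6, E2f2 and Ccnb2), or 14.6%, beside 39.0% of the 16061 genes tested that have a length. Low-count Ccna1, which was not tested, spread 3.31-fold. The median ratio of highest to lowest was 1.22 in the 41 genes and 1.37 over all. The median SD of log2(CPM + 1) between libraries was 0.13 for the 41 genes and 0.17 for 15194 genes, and 26 of the 41 lay below the latter. This difference depended on the scaling, since with library totals in place of TMM factors the medians were 0.17 and 0.18. The biological coefficient of variation from edgeR had a median of 0.120 for the 41 genes and 0.185 over all 17398 genes. Since abundant genes vary less in such data, each gene was also read against the edgeR trend for its abundance, and 30 of the 41 lay below it, beside 73.1% of all genes, a share near that of the rest.

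The order of the libraries differed between these genes. Libraries 1 and 3 had the 2 highest values in 19 of the 41 genes (46.3%), beside 29.0% of the 16061 genes. Among these were 8 of the 11 G2/M genes (Cdc20, Ccnb1, Ccnb2, Ccna2, Cdk1, Aurka, Aurkb and Mki67) and 6 of the 13 G1/S genes (Mcm2, Mcm3, Mcm5, Mcm6, Mcm7 and Cdt1). The rest were Gmnn, the D cyclin Ccnd3, the E2F factors E2f2 and E2f4, and the pocket protein Rbl1. Libraries 2 and 4 had the 2 highest values in 8 of the 41 (19.5%), beside 30.0% of the 16061 genes. These were the D cyclins Ccnd1 and Ccnd2, the kinases Cdk2 and Cdk6, Ccne2, E2f3, Cdkn2b and Rbl2. This order counts small differences too, such as the 1.107-fold range of E2f4. Among the 6 genes with a range of at least 1.5-fold, libraries 2 and 4 were on top in 4 (Ccnd2, Ccne2, E2f3 and Cdk6). Libraries 1 and 3 were on top in the other 2 (E2f2 and Ccnb2). The 2 libraries on top were the same under TPM, TMM-scaled CPM and CPM in 34 of the 41 genes. With CPM the shares were 24 of 41 beside 37.1% for libraries 1 and 3, and 6 of 41 beside 23.5% for libraries 2 and 4. No test stands behind these counts, since the genes of 1 library share its cells.

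Markers of other cell types moved with the same libraries. The summed level of the 8 pluripotency markers was 7170, 3838, 6424 and 4847 TPM in libraries 1 to 4, higher in libraries 1 and 3. Dppa5a alone gave 3815, 1621, 3298 and 2273 TPM of these sums. Klf4 did not follow this order, at 262, 222, 193 and 239 TPM, while the other markers of the sum did. The 9 parietal endoderm markers summed to 3142, 10150, 3819 and 7722 TPM and the 7 fibroblast markers to 1972, 3670, 1716 and 2810 TPM, both higher in libraries 2 and 4. The 11 hepatocyte markers summed to 6.53, 52.5, 8.47 and 23.1 TPM. The part of these cell types in the levels of the cell cycle genes was not tested.

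**Figure D5:**
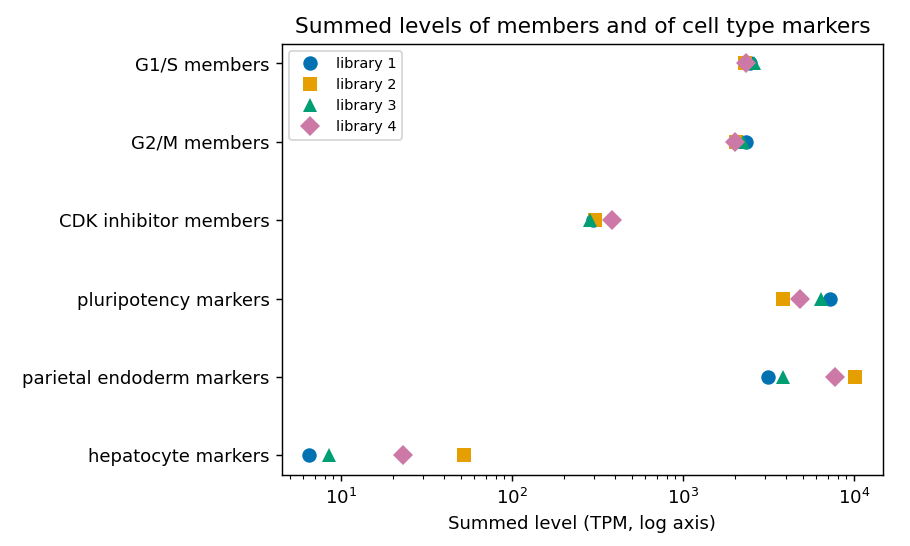
Summed TPM on a log axis of the G1/S, G2/M and CDK inhibitor genes of the 42 and of 3 marker lists, with 1 symbol per library. The sums of the cycle genes lie close together, while parietal endoderm markers run from 3142 to 10150 TPM and hepatocyte markers from 6.53 to 52.5 TPM.

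Each library was then compared with the other 3 by the quasi-likelihood test of edgeR, with Benjamini-Hochberg adjustment over all 17398 genes tested. Such a fit takes the single library to be as variable as the rest. Its p-values set the distance of that library from the other 3 against the spread among those 3. For each gene that spread was drawn toward the spread of all genes tested. None of the 41 genes was called at an adjusted p of 0.05 in any library, and over all genes 0.0% were called in library 1, 0.0% in library 2, 0.0% in library 3 and 0.0% in library 4. At an unadjusted p under 0.05 lay 6 of the 41 genes in library 1 (5.32% of all genes), 2 in library 2 (7.38%), 0 in library 3 (1.57%) and 2 in library 4 (1.55%). DESeq2 called 0 of the 41 in each comparison and 8 genes (0.046%), 68 (0.424%), 3 (0.0172%) and 3 (0.0172%) over all in libraries 1 to 4.

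The genes nearest to a call in library 1 were Ccnb2, with a log2 fold change of 0.54 (SE 0.14), and E2f3, with -0.72 (SE 0.19), each at an adjusted p of 0.723 by edgeR. Ccne2 (-0.76, SE 0.25), Ccnd2 (-0.69, SE 0.29), Cdk6 (-0.57, SE 0.22) and Aurka (0.40, SE 0.13) had the same adjusted p. In library 2 they were Cdkn1b, with 0.35 (SE 0.14), and Cdt1, with -0.35 (SE 0.13), each at an adjusted p of 0.626 by edgeR. Cdkn2b in library 4 had a log2 fold change of 0.49 (SE 0.15), and Ccnd1 0.43 (SE 0.17). Standard errors were derived from the test statistic.

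These counts depended on 1 library each. With library 3 left out, 6 of the 41 genes were called in library 1, or 14.6%, beside 2206 of all genes, or 12.4%: Aurka and Ccnb2 as higher, and Ccne2, Cdk6, Ccnd2 and E2f3 as lower. With library 4 left out, 6 were called in library 2, or 14.6%, beside 2552 of all, or 14.4%: Ccne2, Cdk6, Ccnd2 and E2f3 as higher, and Cdc20 and Cdt1 as lower. With library 1 left out, E2f2 was called as higher and Ccnd1 and Ccnd2 as lower in library 3, 7.32% of the 41 beside 1303 of all, or 7.35%. With library 2 left out, Cdkn2b, Cdk6, Ccnd2 and Ccnd1 were called as higher and E2f2 as lower in library 4, 12.2% of the 41 beside 1386 of all, or 7.8%. For libraries 1 to 3 these shares lay near those of all genes. Ccnd2 was called in each of these 4 comparisons, as lower in libraries 1 and 3 and as higher in libraries 2 and 4. The 4 comparisons reuse the same 4 libraries and are not independent of each other. In each case the library left out was the one most like the library tested. Over all genes, libraries 1 and 3 resembled each other most, as did libraries 2 and 4. Their chi-square per gene was 12.9 and 21.5, against 35.6 to 91.8 for the other pairs.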

How the data were processed

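The 42 genes, the further gene lists and the pairs were chosen with earlier results of these data known. The authors deposited raw counts per gene for each library, whole numbers without normalization, and the submitters' processing notes name STAR, featureCounts and GRCm39 (mm39), without versions or counting options (not given in the sources used here). Even numbers made up 60.0% to 62.6% of counts between 1 and 8, so a fragment may have been counted at both ends, and the handling of multiply aligned reads is not stated.

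Of the 78028 entries, 48824 (98.7% to 98.8% of counts) were matched to GENCODE M21 for the union of exon lengths, 48151 by symbol, 51 by gene ID and 622 by another symbol. The deposited counts were divided by these lengths to give TPM, and CPM used no length. Levels are means of TPM, and medians over genes and ratios of pairs used log2(TPM + 0.1), which understates ratios of low genes. Gene lengths came from GRCm38, not from the build of the reads, so only promoters, taken from the RefSeq table of GRCm38.p6, carry coordinates. Of 37 promoters, 31 had their downstream bases in a transcript on the same strand and 0 on the other.

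Libraries were compared with edgeR 4.0.16 (TMM, filterByExpr, quasi-likelihood test, two-sided, adjusted p of 0.05) and DESeq2 1.42.0 in R 4.3.3, with Python 3.11.15, numpy 2.4.6, pandas 2.3.3 and matplotlib 3.10.9. Only the edgeR test was tried on simulated data, which had a smaller spread between libraries than these data. The named genes are all 42, the 2 highest and 2 lowest of each further list and every pair. One listed name, of the checkpoint genes, matched no symbol. Alternatives were DESeq2, no filter, each library left out, CPM, other pseudocounts and thresholds, and, added after seeing the data, the length of the APPRIS principal transcript. A pair of libraries alike within sampling noise was not seen. Exons of 10 of the 42 genes share between 0.547% and 23.4% of their bases with a protein-coding gene on the opposite strand, most in Ccnd1, Cdk4 and Ccne2. Published hepatocyte data that the submitters compared were not used here.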

Additional observations from a re-analysis of the deposited data

Results flagged for a closer look

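Among 72 values read over the 4 libraries (levels of the genes, ratios of pairs and sums of lists), 6 had a library further from the rest than Dixon's 95% criterion for 4 samples allows, or 8.33%, where chance gives about 1 in 20. The gap to the nearest library, as a share of the whole range, was 0.882 for Cdkn1b (library 2 highest) and 0.904 for Cdkn2a (library 4 highest). It was 0.916 for the ratio of Ccnb1 over Ccnb2 (library 1 lowest), 0.954 for that of Cdc25a over Wee1 (library 2 lowest) and 0.845 for that of Aurka over Aurkb (library 1 highest). For the summed level of the pocket proteins it was 0.913 (library 3 highest).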

How the results depend on the processing

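Without a filter on low counts 1 of the 42 genes was called in library 1 (Ccnd2, log2 fold change -0.71, edgeR adjusted p = 0.0224) and 0 in the others, where 328 of all 39251 genes were called in library 1 and 469, 1 and 6 in libraries 2 to 4. With 1 library left out, the number called ranged from 0 to 6 in library 1, from 0 to 6 in library 2, from 0 to 3 in library 3 and from 0 to 5 in library 4. These fits hold fewer libraries, and the cause was not tested. The number of genes at 1 TPM or more was 41 in all alternatives except at 10 TPM, where it was 39. The median level, 7.11 on the log2 scale, was 6.93 with CPM and 6.87 with principal transcript lengths, where all genes tested had 4.32 and 4.15. The median SD, 0.13, was 0.17 with library totals. The log2 ratio of G2/M over G1/S was 0.23 with the mean of log2 values and -0.28 with principal lengths, against -0.17. Signs reversed with CPM for Cdkn2a over Cdkn2b (-0.044), Cdt1 over Gmnn (0.81) and Cdc25a over Wee1 (0.50), and with principal lengths for Ccnd1 over Ccnd3 (-0.055), Cdk1 over Cdk2 (-0.45) and Cdc25a over Wee1 (0.41), while Ccnd2 over Ccnd3 went from 0.18 to -1.30. Both settings change only the length by which a gene is divided. Leaving out any library left all 16 pair ratios within 1 SD of their value. No paired analysis was possible because the 4 libraries form 1 group. Levels of low genes such as Ccna1, at 8 to 21 counts, are limited by depth.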
